A study of Mus musculus with 2 samples.

Results

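miR-33 and the cluster of miR-183, miR-96 and miR-182 are miRNAs tied to the sterol-regulatory transcription factors (SREBPs), and 6 of their mature forms were taken by probe name from the 1900 miRNA probes of each array: mmu-miR-33-5p, mmu-miR-33-3p, mmu-miR-183-5p, mmu-miR-183-3p, mmu-miR-96-5p and mmu-miR-182-5p, written without the mouse prefix from here on. The arrays measured total RNA of epididymal adipose tissue, the fat pad beside the epididymis, from male C57BL/6J mice put on their diets at 8 weeks of age for 8 weeks. The normal diet held 5% fat, the high-fat diet gave 60% of its energy as fat, and each diet has 1 array. No treatment, transgene or deletion is given for either group, and the number of animals behind an array is not stated in the labels. With 1 array per diet, no p-value, standard error or replicate check could be had for any difference. The arrays carry the numbers 1 and 2 in the file headers, so diet and array cannot be told apart. The question was how these miRNAs differ in fat between the diets.

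Srebf2 encodes the transcription factor that switches on cholesterol synthesis and uptake when sterols are scarce, and miR-33 is made from an intron of this gene. The main arm, miR-33-5p, represses the cholesterol exporter Abca1 and genes of fatty acid oxidation, so that a cell making cholesterol also lets less of it leave. In mouse liver the miR-183 cluster (miR-183, miR-96 and miR-182) is switched on by the same factor and represses Fbxw7 and Insig2, which restrain it. Outside lipid metabolism, the cluster is known for its high level in sensory cells and for expression in epithelia, and miR-182-5p is induced in activated T cells, where it represses Foxo1. A miRNA finds its targets mainly through its seed, bases 2 to 8 from the 5′ end.

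All 6 mature sequences were found in RefSeq (GRCm38.p6), and they are printed with the seed in capitals because the seeds show which members could share targets. The miR-33 arms lie on the plus strand of chromosome 15 within Srebf2, miR-33-5p at chr15:82198127-82198147 and miR-33-3p at chr15:82198167-82198188. The cluster lies on the minus strand of chromosome 6 within the lncRNA gene Mirc35hg, miR-183-5p at chr6:30169711-30169732, miR-183-3p at chr6:30169672-30169693, miR-96-5p at chr6:30169506-30169528 and miR-182-5p at chr6:30165962-30165986.
miR-33-5p: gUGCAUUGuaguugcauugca
miR-33-3p: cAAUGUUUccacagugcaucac
miR-183-5p: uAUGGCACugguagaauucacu
miR-96-5p: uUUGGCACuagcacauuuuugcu
miR-182-5p: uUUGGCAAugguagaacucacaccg
miR-183-3p: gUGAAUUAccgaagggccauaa

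The 6 seeds were all different. Those of the 5′ arms of the cluster were near-copies. Counted from 1 at the 5′ end with miR-183-5p first, miR-96-5p differed within the first 8 bases by A2U, and miR-182-5p by A2U and C8A. Over the 22 bases that could be set side by side, miR-183-5p and miR-182-5p were the same at 18 and miR-183-5p and miR-96-5p at 13. The sources used here do not give the probe sequences, and whether these probes bind each other's targets was not tested. Of the 1900 probes, 1614 had a mature sequence in the RefSeq table, and none of these outside the 6 had a member's seed. The hairpins of miR-183 and miR-96 are 116 bases apart and that of miR-182 is 3453 bases further on. The hairpins whose arms are both among the 6 members are printed with the arms in capitals, since their arms gave separate readings of the same precursor.
Mir33: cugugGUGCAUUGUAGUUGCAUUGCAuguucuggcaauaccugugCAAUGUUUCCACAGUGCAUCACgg
Mir183: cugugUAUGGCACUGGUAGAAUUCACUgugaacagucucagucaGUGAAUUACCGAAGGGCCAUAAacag

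The members gave weak signals on both diets. After scaling, or in the authors' deposited table, none of those detected differed between the diets by as much as 2-fold. The background correction used here added an offset that shrinks differences of dim probes, so 2-fold was hard for the members to reach after scaling. The deposited values carry no such offset. Net signal is the median brightness of a spot minus the trimmed mean of the 896 blank spots of its array (75.65 for normal and 69.24 for high-fat diet), in intensity units. A miRNA counted as detected above the blank mean plus 2 SD, that is above 1.87 net units on normal diet and 1.59 on high-fat diet. By this rule 5 of the 6 members were detected on both arrays and miR-183-5p on neither, while 1370 and 1510 of all miRNAs were detected (72.1% and 79.5%), 1339 of them on both. Detected miRNAs had a median net signal of 13.5 and 16.1, and miR-33-5p alone of the members lay above it on both arrays. In bulk tissue, fewer cells making a miRNA and less of it per cell cannot be told apart.

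miR-33-5p, the arm that represses Abca1, read 17.5 net units on normal diet and 16.7 on high-fat diet. This was 18.8 and 21 times the SD of the trimmed blanks, and no blank spot, negative control or spot named No Probe was as bright on either array. In the authors' deposited table, which lists the net signal times 1 factor per array (1.858 and 1.556), it stood at 32.5 and 25.9, or 1.26-fold lower on high-fat diet. After the background correction and quantile scaling used here, its intensity was 75 against 68.4, a log2 difference of -0.13 (high-fat minus normal diet, as for every difference below). It was the only detected member that was lower on high-fat diet in the deposited table, and it was below 0 in 10 of 11 processings, the exception being scaling to the spike controls (0.28).

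miR-33-3p, the other arm of the same hairpin, for which targets in the same lipid pathways have been reported in human cells, read 7.50 net units on normal diet and 12.4 on high-fat diet. The authors' deposited table lists 13.9 and 19.3, so that the arms of miR-33 went opposite ways in it. After quantile scaling the values were 63.6 and 64.4, a log2 difference of 0.018. On the normal-diet array 7 of 32 negative-control spots and 8 of 174 No Probe spots were at least as bright as miR-33-3p, and on the high-fat array none were.

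miR-96-5p, reported to repress the HDL receptor Scarb1 as well as sharing the cluster's lipid role, read 4.34 net units on normal diet and 9.43 on high-fat diet, the largest ratio among the members (2.17, before any scaling). It was listed at 8.06 and 14.7 in the authors' deposited table, which makes it 1.82-fold higher on high-fat diet. The quantile-scaled values were 59.8 and 61.8 (log2 difference 0.046). On the normal-diet array 65 of 174 No Probe spots and 16 of 32 negative controls were at least as bright as its spot, against 3 and 0 on the high-fat array. Its normal-diet signal thus lay among spots that carry no miRNA name, and its high-fat signal above nearly all of them.

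miR-182-5p, whose target Foxo1 is also a regulator of fat cell metabolism, read 4.65 net units on normal diet and 7.96 on high-fat diet. The authors' deposited table lists 8.65 and 12.4, and the quantile-scaled values were 60.2 and 60.5 (log2 difference 0.0071). miR-183-3p, the less studied arm of the miR-183 hairpin, had a net signal of 4.88 and 7.10, deposited values of 9.07 and 11, and quantile-scaled values of 60.5 and 59.7 (-0.019). Its sign thus differed between the deposited and the quantile-scaled values. On the normal-diet array 57 and 51 of 174 No Probe spots were at least as bright as miR-182-5p and miR-183-3p, and on the high-fat array 5 and 7. Of 32 negative controls, 16 were at least as bright as each on the normal-diet array, and 3 and 4 on the high-fat array.

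miR-183-5p, the arm of that hairpin whose seed is a near-copy of those of miR-96-5p and miR-182-5p, lay at the blank level. It read 1.81 net units on normal diet, just under the limit of 1.87, and 0.0204 on high-fat diet. On the 2 arrays 57 and 438 of 896 blank spots were at least as bright. It has no listed value in the authors' deposited table and no fold is given. The other arms of miR-96 and miR-182, which are not among the 6, were not detected either, with net signals of 1.53 and 0.685 for miR-96-3p and -1.39 and 0.0276 for miR-182-3p. Against the blanks, 3 of the cluster's 6 mature forms were thus detected on both arrays, where 1339 of all 1900 miRNAs were. On the normal-diet array from 51 to 65 of the 174 No Probe spots were at least as bright as these 3. Brightness depends on each probe as well as on the amount of its miRNA, so these values give no order of abundance among the members or between arms.

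**Figure D1:**
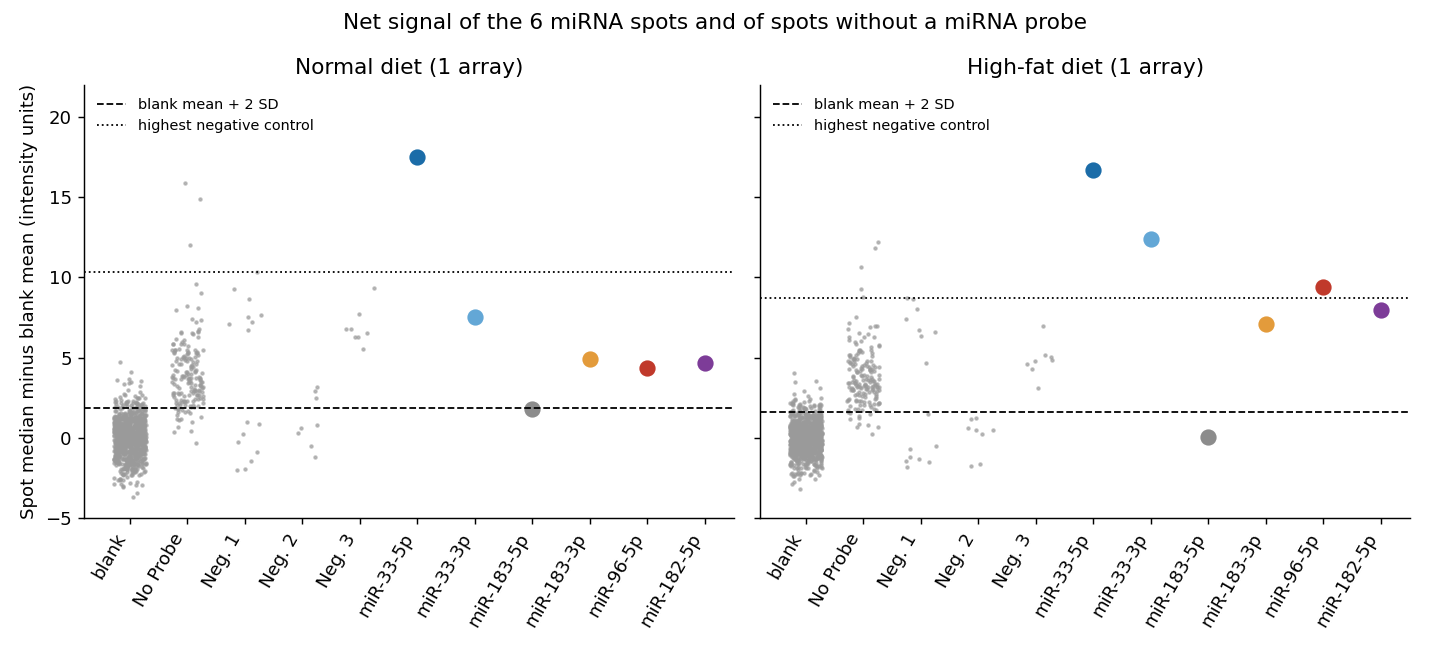
Net signal (vertical axis: spot median minus the blank mean, intensity units) for normal diet (left) and high-fat diet (right): each grey point is 1 spot without a miRNA probe and each coloured point the 1 spot of a member. The dashed line is the detection limit and the dotted line the highest of 32 negative controls (10.3 and 8.72), above which only miR-33-5p lay on both arrays.

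The detection rule was set against the array's spots without a miRNA probe. Of the 896 blanks, 6.03% and 5.36% passed it. Of the 174 spots named No Probe, whose content the sources used here do not give, 89.7% and 94.3% passed it, with a median net signal of 3.70 and 3.52. All 8 spots of Negative Control 3 passed on both arrays (median 6.65 and 4.80). With the highest negative control as the limit, 1 member was detected on both arrays, miR-33-5p, and with the 95th percentile of the No Probe spots (7.33 and 6.93), 2 were, miR-33-5p and miR-33-3p. These limits were added after the values had been seen. A detected call for miR-96-5p, miR-182-5p or miR-183-3p on the normal-diet array therefore rests on the comparison with blanks. On the high-fat array miR-182-5p (7.96) and miR-183-3p (7.10) were above the 95th percentile of No Probe spots. They were still below the highest negative control there (8.72).

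Over the 5 members detected on both arrays the median log2 difference after quantile scaling was 0.0071, with 3 higher and 2 lower. Over all 1339 miRNAs detected on both arrays it was -0.038, with 471 higher and 862 lower. None of the 5 members passed 2-fold, and 2.02% of the 1339 did. The offset in the background correction shrinks differences of dim probes, so these counts do not compare the members with brighter miRNAs on equal terms. miR-429-3p read 2.05 net units on normal diet and 45.5 on high-fat diet, yet its quantile-scaled log2 difference was 0.73. miR-200a-3p, at 6.48 and 112 net units, did pass (1.35). By the authors' deposited table, 4 of the 5 were higher on high-fat diet, with a median log2 difference of 0.47, against a median of 0.0052 and 674 of 1339 higher over all miRNAs listed on both arrays. Again none of the 5 passed 2-fold, where 12.2% of those miRNAs did, 7.54% upward. Before any scaling miR-96-5p was past 2-fold, as were 14.9% of the 1339, and the median ratio of net signals over all of them was 1.20. The ratios of the other detected members were 0.952 for miR-33-5p, 1.66 for miR-33-3p, 1.45 for miR-183-3p and 1.71 for miR-182-5p.

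The only error that could be set beside these differences is that of spots without a miRNA, which covers neither animals nor RNA preparations. After quantile scaling, blank spots at the same place on both arrays differed with an SD of 0.0402 on the log2 scale, from -0.12 at their 1st percentile to 0.064 at their 99th. miR-33-5p lay just below this range (-0.13) and the other 4 members within it. On the linear scale of the authors' deposited values, blank spots differed with an SD of 2.50, from -5.92 to 5.49 at the same percentiles, and No Probe spots from -9.64 to 5.98. On that scale miR-33-5p differed by -6.61, which is outside the range of the blanks and inside that of the No Probe spots. The difference of miR-96-5p, 6.60, was above both 99th percentiles but below the highest blank (7.62) and the highest No Probe spot (7.29). Those of miR-33-3p (5.38), miR-182-5p (3.73) and miR-183-3p (1.98) were inside both ranges. The 8 spots of Negative Control 3 differed by -9.45 to -1.79 on that scale. Other negative controls went both ways: 1 spot of Negative Control 1 read 6.73 and 8.62 net units, and another 10.3 and 8.72.

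**Figure D2:**
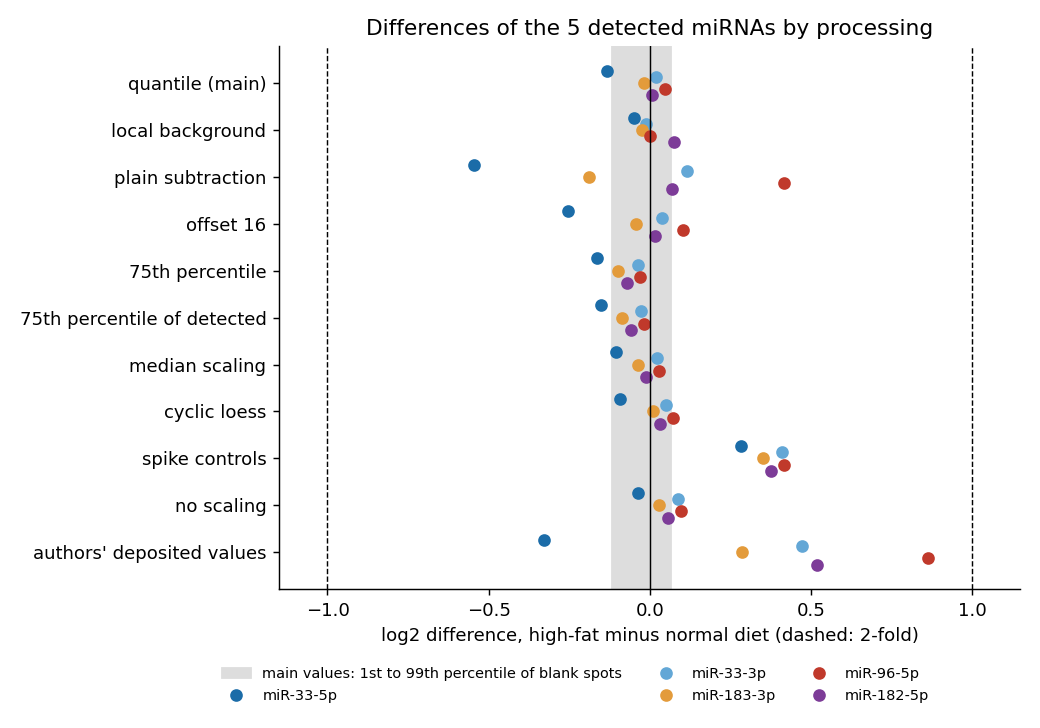
Log2 difference (high-fat minus normal diet, horizontal axis) of the 5 detected members under each of 11 processings (vertical axis), with 2-fold marked by dashed lines and the 1st to 99th percentile of blank spots under the main values in grey. No point reaches 2-fold. With spike controls, a scaling that moves every probe of an array by the same log2 amount, all 5 members are above 0. In the other 10 processings miR-33-5p is below 0.

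Some spots had bright neighbours. The brightest spot touching that of miR-183-3p was let-7f-5p (net signal 2588 and 1802), and for miR-33-3p it was miR-375-5p (1256 and 908.6). For miR-96-5p it was miR-15a-5p (474.2 and 467.1). Blank spots next to a spot with a net signal above 300 had a median of 0.028 on normal diet (16 spots) and -0.148 on high-fat diet (18 spots), against 0.00231 and -0.0162 for the other blanks. The local background around miR-33-5p was 79.01 and 79.03, above that of the other members (65.09 to 71.95), and the spot exceeded it by 14.2 and 6.88.

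Likeness was measured as the distance between 2 miRNAs in their pair of quantile-scaled log2 values, over 2 arrays only. The nearest were miR-7004-3p (0.00845) and miR-7039-3p (0.0164) for miR-33-5p, and miR-7020-3p (0.00256) and miR-381-3p (0.0125) for miR-33-3p. For miR-96-5p they were let-7d-3p (0.00406) and miR-7213-5p (0.00794), for miR-182-5p miR-6900-3p (0.00303) and miR-1900 (0.00485), and for miR-183-3p miR-1904 (0.00383) and miR-105 (0.00409). From 96 miRNAs for miR-33-5p to 308 for miR-183-3p lay within a distance of 0.1, so nearness in these data picks out dim probes rather than particular partners.

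**Figure D3:**
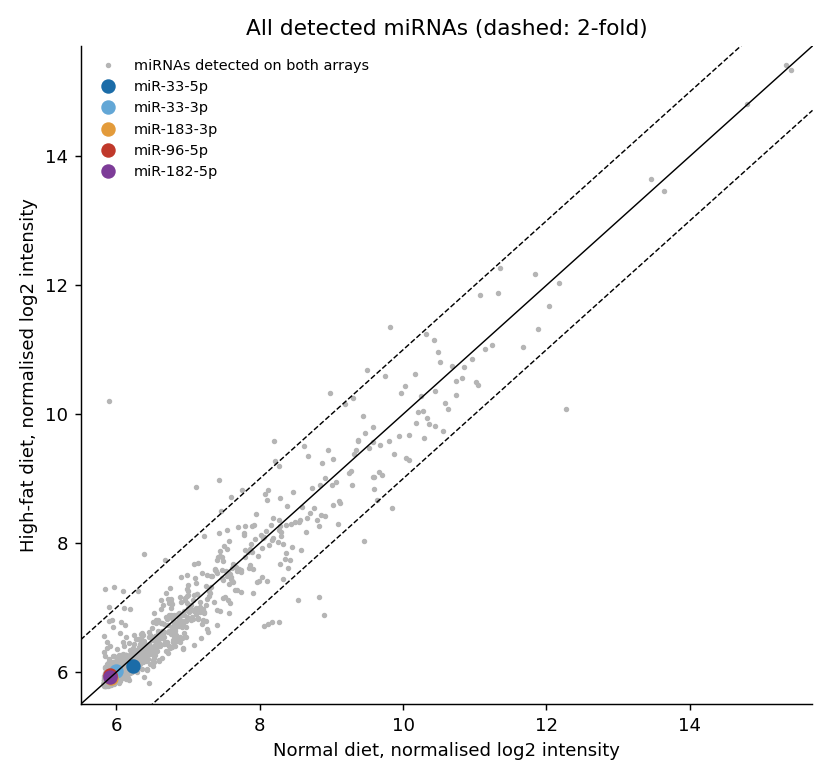
Normalised log2 intensity on normal diet (horizontal) against high-fat diet (vertical) for the 1339 miRNAs detected on both, 1 grey point each, with the members in colour and 2-fold as dashed lines. The 5 members sit in the dim corner of the cloud close to the diagonal, between 59.7 and 75 in normalised intensity.

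Other miRNAs that act on the genes of cholesterol traffic had values on both sides. Of 24 miRNAs listed for cholesterol and lipid transport, among them repressors of Abca1 and Scarb1, 20 were detected on both arrays. With spike-control scaling 13 of them were lower (median log2 difference -0.095). The share lower and the median over all miRNAs are not given here for that scaling. After quantile scaling 15 of the 20 were lower and 5 higher, where 862 of all 1339 were lower. The quantile-scaled median was -0.50 for the list and -0.038 for all miRNAs. At least 2-fold lower were 2 of the 20, as were 0.747% of all: miR-144-3p, an Abca1 repressor that is also abundant in red cells (476 against 118.6, -2.00), and miR-378a-3p of the Ppargc1b gene (453 against 143, -1.66). At least 2-fold higher were 2, as were 1.27% of all: miR-19b-3p (296.4 against 616.9, 1.06) and miR-34a-5p, which represses Sirt1 (176.5 against 361.7, 1.04). miR-223-3p, a repressor of the HDL receptor Scarb1, had the next largest difference (321.3 against 173.2, -0.89). Among the other repressors of Abca1, miR-148a-3p was at -0.68, miR-26a-5p at -0.63 and miR-27b-3p at -0.56. The dim miR-128-3p (0.046) and miR-301b-3p (0.055) stood near 0 like the members. The brighter miR-20a-5p of the same list was higher (222.8 against 308.7, 0.47). With each spot's local background in place of the blank mean, miR-148a-3p (0.68), miR-26a-5p (0.66) and miR-27b-3p (0.46) had the other sign, miR-19b-3p was at -0.012 and miR-34a-5p at 0.20, and the list stood at 8 higher and 12 lower. In that setting miR-145a-5p went from -0.64 to 3.49, miR-27a-3p from -0.52 to -2.64 and miR-20a-5p from 0.47 to -0.49. An earlier account of the whole series found the local background to follow the spot signal. What this does to the values with local background was not tested. miR-758-3p, another Abca1 repressor, and miR-302a-3p were not detected on either array.

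Of 7 other miRNAs listed as acting on Foxo1, a target reported for the cluster, 6 were detected on both arrays. With spike-control scaling their median was -0.17. After quantile scaling 5 were lower and 1 higher (median -0.54), where 862 of all 1339 miRNAs were lower (median -0.038). None of the 6 passed 2-fold, where 2.02% of the 1339 did. The 6 included miR-223-3p, miR-139-5p (122 against 81.9, -0.57) and miR-27b-3p. The local background split them into 3 higher and 3 lower, with a median of -0.053. Several of these miRNAs stand in both lists, and the lists are described by their counts alone.

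Markers of the tissue and of other cells also differed between the arrays. Of all 1339 miRNAs detected on both, 862 were lower and 471 higher after quantile scaling. At least 2-fold lower were 0.747% of them, and at least 2-fold higher 1.27%. All 9 miRNAs listed for adipose tissue were detected, with a summed net signal of 10992 on normal and 5688 on high-fat diet. Their median log2 difference was -0.79, with all 9 lower and 3 past 2-fold, miR-378a-3p, miR-193b-3p (-1.42) and miR-365-3p (-1.30), of which miR-193b-3p (-0.87) and miR-365-3p (-0.89) did not with spike-control scaling; with the local background 3 of the 9 were higher. Of the 7 epithelial markers 6 were detected on both arrays, 5 higher and 1 lower (median 0.76). The summed net signal of all 7 was 128.9 against 484.1. The lower one, miR-203-3p (-0.21, or 0.22 with the local background), was the brightest of them on normal diet, at 81 and 77 net units. miR-200a-3p (1.35) and miR-200b-3p (1.17) passed 2-fold, though the local background put them at 0.085 and 0.14, miR-141-3p was at 0.80, and miR-205-5p was detected on the high-fat array only. All 6 markers of ciliated epithelium and epididymis were detected on the high-fat array and 3 on both, with summed net signals of 13.6 and 2644. All 3 of these passed 2-fold: miR-34c-5p (4.31), miR-34b-3p (1.44) and miR-34c-3p (1.12). With the local background only miR-34c-5p did (1.67), with miR-34b-3p at 0.89 and miR-34c-3p at 0.069. Since the miR-183 cluster is also made in epithelia, these values are given beside the higher deposited values of its members, and their part in those was not tested.

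All 5 leukocyte markers were lower after quantile scaling (median -0.58, summed net signal 799.1 against 421.3), among them miR-150-5p (-1.35, or 0.34 with the local background) and miR-142a-3p (-0.58). The dimmest, miR-155-5p (-0.061), read 4.96 and 5.07 net units and was at 0.30 with spike controls. All 3 erythrocyte markers were lower too (median -2.00, summed 5534 against 1050), with miR-451a at -2.20 and miR-144-5p at -0.63. Of 4 neuronal markers 2 were detected on both arrays, miR-219a-5p (-0.15) and miR-9-5p (0.014). The defining neuronal miR-124-3p was not detected on the normal-diet array and had a net signal of 19.9 on the high-fat array, at least 1.26-fold higher, and the summed net signals were 13.2 and 34. The hepatocyte miR-122-5p read 2.01 and 1.14 net units. Over the 11 processings the medians ranged from -1.22 to -0.60 for the adipose tissue list, from 0.20 to 2.58 for the epithelial list, from 0.89 to 5.24 for the ciliated list, from -0.90 to -0.075 for the leukocyte list and from -2.77 to -1.56 for the erythrocyte list. The part of these cells in the members' values was not tested.

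**Figure D4:**
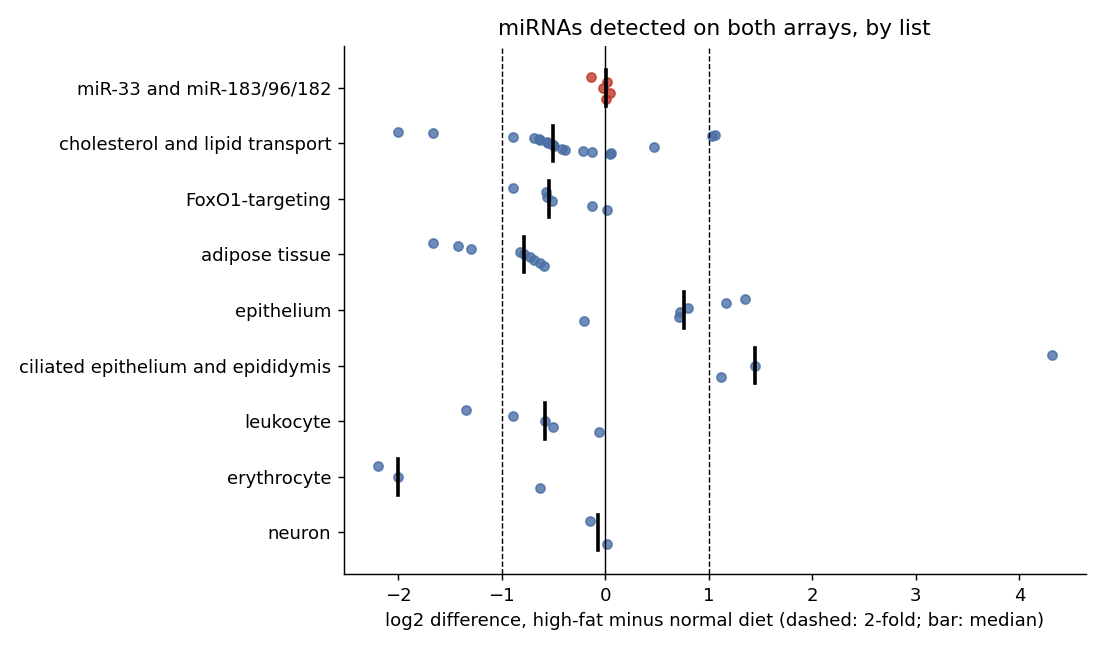
Log2 difference after quantile scaling (horizontal axis) of the miRNAs detected on both arrays, 1 point each, for the members (red) and each list (blue), with the median as a bar and 2-fold as dashed lines. The members lie from -0.13 to 0.046, the adipose tissue list around a median of -0.79 and the epithelium list around 0.76.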

How the data were processed

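Total RNA was labelled with Cy5 and hybridised to 1-colour 3D-Gene arrays, per the labels. Per the file headers, the deposited scanner files give spot and local background intensity in 1 channel, merged from several gains; no scanner software is given in the sources used here. The processed intensity values in the authors' deposited table equalled the spot median minus the trimmed blank mean, times 1 factor per array (largest deviation 3.14e-06), so it is linear; values are listed exactly where the blank rule is met.

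Spot medians were corrected here with normexp in limma 3.58.1 (R 4.3.3; offset 50) against the blank mean (5% of blanks trimmed at each end), quantile-scaled across the miRNA probes and log2-transformed. The offset shrinks differences of dim probes. Samples were grouped by the labelled diet. Size rule: 2-fold among miRNAs detected on both arrays. Named were all members, the other arms, probes sharing a seed, the 2 nearest miRNAs per member, and from each list up to 3 of the largest differences and those past 2-fold; further list members were named after their values were seen. Members and lists were chosen with earlier results of these data known, lists from general knowledge. Alternatives covered background, offset, scaling, detection limit, dim probes and the deposited values. The pipeline was tested on simulated data, where the right order of recovered changes was required only of probes brighter than the median. The number of arrays limits the precision.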

Additional observations from a re-analysis of the deposited data

How the results depend on the processing

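No paired analysis was possible because each diet has 1 array. No member detected on both arrays passed 2-fold under the 10 alternative processings, the deposited values included. The unscaled net ratio of miR-96-5p, 2.17, is the exception outside them. Where an offset was added, it shrank the differences of these dim probes, so 2-fold was hard to reach there. The members' median, 0.0071, was -0.071 with 75th percentile scaling, -0.059 with that percentile taken over detected miRNAs, 0.069 by plain subtraction, 0.055 without scaling, 0.38 with spike controls and 0.47 in the authors' deposited values. With a stricter limit it was -0.13 over the 1 member above the highest negative control, -0.057 over the 2 above the 95th percentile of No Probe spots and -0.13 over the 1 of at least median signal. Single members changed sign as follows, the last 3 by less than the SD of blank spots (0.0402): with spike controls miR-33-5p (0.28) and miR-183-3p (0.35); without scaling miR-183-3p (0.029), and in the authors' deposited values (0.28); with 75th percentile scaling, over all and over detected miRNAs, miR-33-3p (-0.038 and -0.026), miR-96-5p (-0.0297 and -0.018) and miR-182-5p (-0.071 and -0.059); with the local background miR-33-3p (-0.0104), with median scaling miR-182-5p (-0.0124) and with cyclic loess miR-183-3p (0.0088). The neuron list was at 0.30 with spike controls, against -0.066. Among all miRNAs detected on both arrays, 17 passed 2-fold upward and 10 downward; plain subtraction gave 64 and 105, spike controls 45 and 5, and the authors' deposited values 101 and 62, while offset 16 gave 30 higher and the local background 18 lower. The cause of these shifts was not tested. On the deposited scale blank spots alone differed with an SD of 2.50, which limits what can be read from the members, listed between 8.06 and 32.5.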
